A study of Mus musculus with 6 samples.

Results

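17β-estradiol (E2), the natural estrogen, was compared with an empty implant (placebo) in splenocytes of female NZB/WF1 mice, across the mouse miRNA probes of an nCounter panel. NZB/WF1 mice come from a cross whose offspring spontaneously develop a lupus-like autoimmune disease, and females are affected earlier than males. The comparison was formed from the treatment labels alone: 2 samples carried the E2 label and 2 the placebo label, of 6 samples in the series. The other 2 samples came from mice given 17α-ethinyl estradiol (EE), and they entered the fit as a group of their own that shared the estimate of the spread. All mice were female NZB/WF1 and received their implant at 6 to 7 weeks of age. Splenocytes were collected after 9 weeks with the implant. The sources used here give neither the dose of E2 in the implant nor whether the ovaries were left in place. Nothing in the labels says that samples with the same treatment are different mice. The p-values therefore reflect sample-to-sample spread that may be technical.

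miRNAs are short RNAs cut from hairpin precursors; loaded on an Argonaute protein, they pair with messenger RNAs mainly through their seed, bases 2 to 8, and lower the output of those messages. Several blood miRNAs are enriched by lineage: miR-144, miR-451 and miR-486 in red cell precursors, miR-223 in neutrophils and other myeloid cells, and miR-150, miR-181a and miR-342 in lymphocytes. The mouse spleen holds mostly B and T lymphocytes, and its red pulp also makes red and white blood cells. In bulk splenocytes, fewer cells of a type and less of a miRNA per cell cannot be told apart.

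With E2, 4 miRNAs rose and 6 fell among the 95 that could be tested. The 4 that rose were the red cell miRNAs miR-486, miR-144 and miR-451 and the myeloid miR-223, by 3.09-fold to 7.68-fold. The 6 that fell included the lymphocyte miRNAs miR-150, miR-181a and miR-342-3p and the leukocyte miRNA miR-142-3p. The others were miR-125b-5p and miR-2132. These falls were smaller than the rises, between -0.50 and -0.99 on the log2 scale. None of the 6 falls passed the adjusted threshold after rescaling by the median tested miRNA or by the positive ligation control probes. The 4 rises passed under both.

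The mature sequences of the miRNAs that changed are shown first, 5′ to 3′ with the seed in capitals, because the probes read these molecules and the seed defines which targets members share. The sequences and positions are RefSeq's on mouse build GRCm38.p6, and a probe named without an arm was matched to the arm that miRBase named without a star. RefSeq placed miR-144-3p at chr11:78073047-78073066 and miR-451a at chr11:78073186-78073207, both on the plus strand, so that their mature sequences start 139 bases apart. miR-223-3p lies at chrX:96242884-96242905, on the plus strand, within the span of the long noncoding RNA F630028O10Rik.
miR-144-3p: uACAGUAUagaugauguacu
miR-451a: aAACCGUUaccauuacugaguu
miR-223-3p: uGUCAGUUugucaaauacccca

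Of the miRNAs that fell, miR-181a-5p comes from 2 loci, at chr1:137966468-137966490 and chr2:38852741-38852763, the second within the span of Nr6a1. miR-142a-3p lies at chr11:87756903-87756925 and miR-342-3p at chr12:108658680-108658702, within the span of Evl. miR-125b-5p also has 2 loci, at chr9:41581940-41581961, within the span of Mir100hg, and at chr16:77646279-77646300. All of these positions are on the plus strand. miR-125a-5p, at chr17:17830817-17830840 on the plus strand, is shown beside miR-125b-5p because the 2 share a seed.
miR-181a-5p: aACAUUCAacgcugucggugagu
miR-142a-3p: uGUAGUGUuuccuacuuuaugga
miR-342-3p: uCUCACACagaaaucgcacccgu
miR-125b-5p: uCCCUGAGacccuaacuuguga
miR-125a-5p: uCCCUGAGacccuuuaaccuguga

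The 7 changed miRNAs with a sequence carried 7 distinct seeds, so no seed was shared by any 2 of them. miR-486, miR-150 and miR-2132 are named only. RefSeq places Mir486 on chromosome 8 within the span of Ank1, which encodes the red cell membrane protein ankyrin, and Mir150 on chromosome 7.

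The panel counts each miRNA by a colour-coded barcode read from single molecules without amplification. The deposited values behave as counts that were scaled per sample and rounded, and they are called normalized counts below. The table held 626 probes, 566 of them for mouse miRNAs, and 95 had a mean over all 6 samples above the detection floor of 53.3, which is the mean plus 2 SD of the 8 negative control probes. The other 471 were not tested. The highest negative control stood between 43 and 58 in these 4 samples, so in 1 placebo sample it passed the floor. Summed over all probes, the scores ran from 175477 to 205209. Over the tested miRNAs, the median gap between the 2 samples of a group was 0.22 log2 units with placebo and 0.18 with E2.

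In limma's moderated test with Benjamini-Hochberg adjustment over the 95 tested miRNAs, 10 passed an adjusted p of 0.05, or 10.5%. The 4 higher made up 4.21% and the 6 lower 6.32%. At an unadjusted p under 0.05 there were 10 higher and 10 lower. The E2 and placebo samples did not overlap for 60 miRNAs, or 63.2%, of which 17 were higher with E2 (17.9%) and 43 lower (45.3%). The tested miRNAs had a median log2 fold change of -0.20, with 30 above 0 and 65 below, and single fold changes stand on that shift. The geometric mean of the 100 highest miRNAs differed by only -0.02 log2 units, E2 over placebo. On such a scale large rises are balanced by falls of other probes, and their part in the shift was not tested. The shift was 0.12 after rescaling by the positive ligation control probes, -0.41 by the housekeeping mRNA probes and -0.36 by the positive control probes. The split of 4 higher and 6 lower moved with the scaling in limma's test. It was 4 and 0 after rescaling by the median tested miRNA, with 5 lower at an unadjusted p under 0.05, and 4 and 0 by the ligation controls, with 1 lower at that level. It was 7 and 4 after quantile normalization. Leaving out E2 sample 1 gave 4 and 2, leaving out E2 sample 2 gave 5 and 2, and leaving out placebo sample 1 gave 7 and 5.

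**Figure D1:**
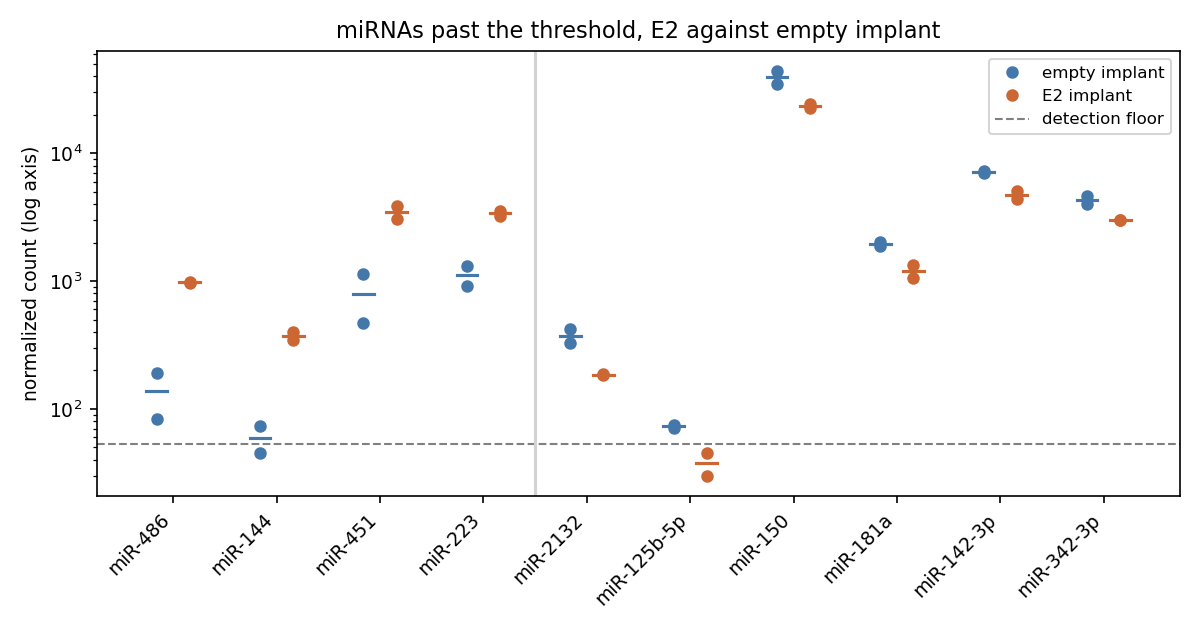
Normalized counts (log axis) of the 10 miRNAs past the threshold; each point is 1 sample, bars are group means, n = 2 per group, and the dashed line is the detection floor of 53.3. For all 10, both E2 samples lie on the same side of both placebo samples, as for 63.2% of all tested miRNAs. Both E2 samples of miR-125b-5p and 1 placebo sample of miR-144 lie under the floor.

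miR-486, which is made from the locus of ankyrin and is abundant in maturing red cells, had 192 and 83 normalized counts with placebo and 973 and 980 with E2. The E2 samples were nearly equal and far above the higher placebo sample. The rise was 2.94 ± 0.31 (SE) on the log2 scale, or 7.68-fold with a 95% interval of 4.78 to 12.3 (limma adjusted p = 1.13e-04). Its log2 fold change was 3.54 without placebo sample 1 and 2.34 without placebo sample 2, past the threshold in both fits. miR-144, which shares a transcript with miR-451 under the red cell factor GATA1, had 73 and 45 with placebo and 400 and 346 with E2. The placebo samples lay on either side of the floor and both E2 samples well above it. Its log2 fold change was 2.68 ± 0.30 (SE), with a 95% interval of 4.01-fold to 10.2-fold (limma adjusted p = 1.13e-04). Because 1 placebo sample lay under the floor, the size of that change is uncertain.

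miR-451, which is cut by Argonaute 2 without Dicer and is required for normal red cell maturation under stress, had 1128 in placebo sample 1, a mean of 798 over both placebo samples, and 3857 and 3050 with E2. The placebo samples differed more from each other on the log2 scale than the E2 samples did, and the groups did not overlap. On that scale the rise was 2.24 ± 0.32 (SE), with a 95% interval of 2.88-fold to 7.73-fold (limma adjusted p = 7.38e-04). All 3 red cell miRNAs were higher in placebo sample 1 than in placebo sample 2. Leaving sample 1 out raised the log2 fold change of miR-451 to 2.87, and leaving the other out lowered it to 1.60, with all 3 past the threshold either way.

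The marker list for red cells held these 3 and miR-210, a hypoxia-induced miRNA that is also made in erythroid cells. miR-210 was under the floor in every E2 and placebo sample, at 23 and 12 with placebo and 24 and 15 with E2, and was not tested. The 3 tested members all rose, and their median log2 fold change was 2.68 against -0.20 for all tested. The summed level of the 4 went from 1416 and 608 with placebo to 5254 and 4391 with E2. In order of level among the mouse probes of a sample, miR-451 moved from ranks 25 and 34 to ranks 8 and 10.

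miR-223, a miRNA that restrains neutrophil production and activation, had 1308 and 911 with placebo and 3522 and 3244 with E2. Both E2 samples were well above both placebo samples. The rise was 1.63 ± 0.18 (SE) on the log2 scale, or 3.09-fold with a 95% interval of 2.33 to 4.10 (limma adjusted p = 1.13e-04). Its rank moved from 20 and 25 to 10 and 8. The myeloid list also held the members of the miR-23a cluster, which acts downstream of the myeloid factor PU.1, and none of these passed. miR-23a had 803 and 758 with placebo and 644 and 575 with E2, a log2 fold change of -0.36. miR-27a had a log2 fold change of -0.03 and miR-24 of -0.24. Thus 1 of 4 members rose, and the list's median was -0.14, which turned positive after rescaling by the ligation controls.

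miR-150, the most abundant species in these samples and a regulator of B cell development through c-Myb, had 44123 and 35124 normalized counts with placebo and 24211 and 22678 with E2. The lower placebo sample was still well above the higher E2 sample. The log2 fold change was -0.75 ± 0.11 (SE) (limma adjusted p = 9.53e-04). It was 0 after quantile normalization, where a miRNA ranked first in every sample gets the same value by construction, and the call was also lost without the filter and after rescaling by the median tested miRNA or the ligation controls. It passed in all 6 fits that each left out 1 sample.

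miR-181a, which tunes T cell receptor sensitivity in the thymus and promotes B cell differentiation, had 2022 and 1897 with placebo and 1345 and 1065 with E2. The groups were well separated. It fell with a log2 fold change of -0.71 ± 0.17 (SE) (limma adjusted p = 0.0230). The call was lost without E2 sample 2 (limma adjusted p = 0.222) and without placebo sample 1 (0.0530). Its seed mates on the panel were under the floor: the probe for miR-181b and miR-181d stood at 29 and 24 with placebo and 32 and 19 with E2, and miR-181c at 43 and 44 with placebo and 33 and 34 with E2. No change of those could be read at this level.

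miR-342-3p, a lymphocyte miRNA from an intron of Evl, had 4616 and 3979 with placebo and 3033 and 3013 with E2. The E2 samples were nearly equal and both below the placebo samples. It fell with a log2 fold change of -0.50 ± 0.14 (SE) (limma adjusted p = 0.0411). This call was close to the threshold, and it was lost in 5 of the 6 fits that left out 1 sample, all but the fit without placebo sample 2, at limma adjusted p of 0.0522 to 0.222. The call was also lost in 8 of the 13 other alternatives, among them the fit of only the 4 E2 and placebo samples and quantile normalization. The opposite arm, miR-342-5p, was under the floor at 48 and 43 with placebo and 47 and 29 with E2.

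miR-155, which is induced when B cells, T cells and macrophages are activated, had 111 and 204 with placebo and 94 and 57 with E2. The E2 samples were lower than both placebo samples, but both pairs were spread, by 0.87 log2 units with placebo and 0.71 with E2. Its log2 fold change of -1.03 ± 0.71 (SE) did not pass (limma adjusted p = 0.335). The EE samples shared the estimate of the spread in that fit. When only the 4 E2 and placebo samples entered, the same fold change had a limma adjusted p of 0.0175. Over the alternatives its adjusted p ran from 0.00253 to 0.779.

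The lymphoid list therefore held 4 tested members of 6, of which 3 fell, with a median of -0.73 on the log2 scale against -0.20 for all tested. Its summed level went from 50949 and 41271 with placebo to 28762 and 26861 with E2, most of it miR-150. Beside this fall stood the rise of the red cell list in the same samples, and the part of the one in the other was not tested.

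**Figure D2:**
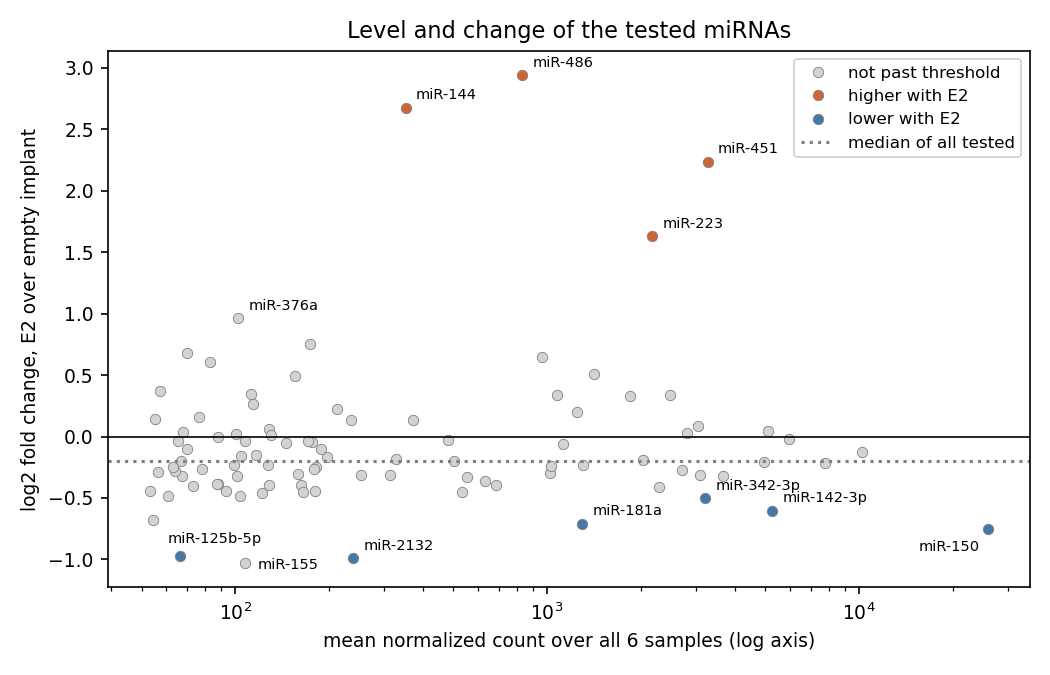
Log2 fold change of the 95 tested miRNAs, E2 over empty implant, against their mean normalized count over all 6 samples (log axis); each point is 1 miRNA, coloured where it passed the threshold, and the dotted line is the median of -0.20. The 4 that rose stand apart above 1.6, while the 6 that fell lie between -0.50 and -0.99, close to miRNAs that did not pass, such as miR-155 at -1.03.

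miR-142-3p, which is made in all blood cell lineages, had 7049 and 7317 with placebo and 5069 and 4409 with E2. The groups did not overlap, and the fall was by a log2 fold change of -0.60 ± 0.15 (SE) (limma adjusted p = 0.0245). The call was lost without E2 sample 1 (limma adjusted p = 0.0670), without E2 sample 2 (0.222) and without placebo sample 2 (0.0628). The other arm of its hairpin, miR-142-5p, had 93 and 100 with placebo and 114 and 133 with E2, higher in both E2 samples, with a log2 fold change of 0.35 that did not pass (limma adjusted p = 0.227). The hairpin is shown with both arms in capitals, the 5p arm first, as it lies at chr11:87756864-87756927 on the plus strand. The 3p arm was the one that fell.
Mir142: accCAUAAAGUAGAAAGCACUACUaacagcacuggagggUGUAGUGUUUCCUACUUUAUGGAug

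The log2 ratio of the 5p to the 3p probe of miR-142 was -6.23 and -6.18 with placebo and -5.46 and -5.04 with E2. The groups did not overlap, and the means differed by 0.95. The level of 1 probe against another also depends on how well each captures its target, so only the change of the ratio between samples is read here. The other 3 hairpins with both arms tested were miR-151, miR-423 and miR-125a. For miR-151 the ratio was 1.53 and 1.69 with placebo and 2.40 and 1.99 with E2, a difference of means of 0.58. For miR-423 the ratio was -0.09 and -0.28 with placebo and -0.04 and 0.18 with E2, a difference of 0.25. For miR-125a the ratio was 0.34 and -0.23 with placebo and -0.35 and -0.31 with E2, a difference of -0.38. The groups did not overlap for these 3 hairpins either, so lack of overlap does not set miR-142 apart. These differences between arms were not tested.

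**Figure D3:**
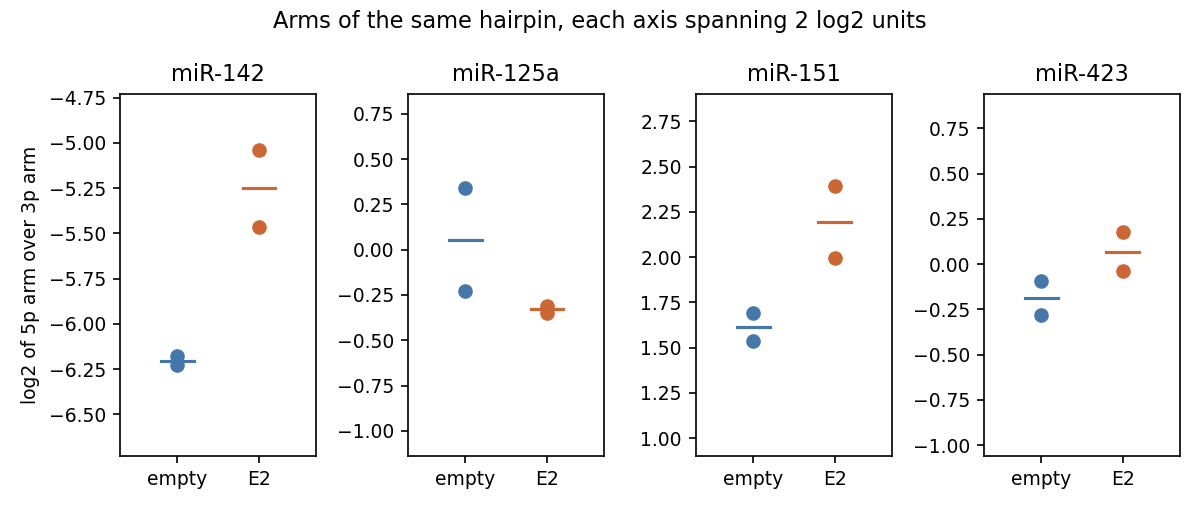
Log2 ratio of the 5p to the 3p probe of the 4 hairpins with both arms tested, in the empty-implant and E2 samples; points are samples, bars are means of 2, and every panel spans 2 log2 units on its own offset. For miR-142 both E2 samples, at -5.46 and -5.04, lie above both placebo samples, at -6.23 and -6.18. The groups do not overlap in the other panels either, and for miR-125a the E2 samples lie lower.

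miR-2132 had 419 and 326 with placebo and 186 and 185 with E2. The E2 samples were nearly equal and below both placebo samples. The fall, as a log2 fold change, was -0.99 ± 0.20 (SE) (limma adjusted p = 0.00682). The call was lost without E2 sample 1 (limma adjusted p = 0.0631) and without E2 sample 2 (0.0562). No RefSeq gene was matched to this name, so no role is given for it.

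miR-125b-5p, a miRNA of stem cells, myeloid progenitors and stromal cells, had 75 and 71 with placebo and 30 and 45 with E2. Both E2 samples lay under the floor and under the highest negative control of their sample, at 48 and 50. Its mean of 66.5 passed the filter only through samples of the other groups. Neither the call nor the size of the fall is therefore secure. Among tested miRNAs, 3 had both placebo samples above the floor and both E2 samples under it, and 0 the reverse. The log2 fold change was -0.97 ± 0.24 (SE) (limma adjusted p = 0.0247). It did not pass without E2 sample 1 (limma adjusted p = 0.202), without placebo sample 1 (0.0649) or without placebo sample 2 (0.0628). miR-125a-5p, with the same seed, had 66 and 63 with placebo and 39 and 41 with E2, also under the floor in both E2 samples. Its log2 fold change of -0.68 did not pass (limma adjusted p = 0.102).

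The stromal and smooth muscle list held 8 probes, of which only miR-125b-5p and miR-145 were tested. miR-145, a smooth muscle miRNA, had 85 and 74 with placebo and 58 and 63 with E2, a log2 fold change of -0.39 that did not pass. The other 6 were under the floor in every one of these samples, the highest being miR-99a at 47 and 36 with placebo and 22 and 27 with E2. Fibroblast miR-214 was at 15 and 12 with placebo and 3 and 7 with E2. miR-100 was at 10 and 3 with placebo and 4 and 7 with E2.

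Markers of other tissues gave the background of the sample. The endothelial miR-126-3p had 78 and 80 with placebo and 103 and 88 with E2, a log2 fold change of 0.27 that did not pass. The liver miRNA miR-122 stood at 2 and 3 with placebo and 8 and 8 with E2, and none of the 6 muscle, 4 pancreas and 4 neural probes exceeded 28. These probes were all under the floor. Of 7 epithelial probes only miR-200c was tested, at 66 and 76 with placebo and 53 and 64 with E2, and it did not pass, with a log2 fold change of -0.28.

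**Figure D4:**
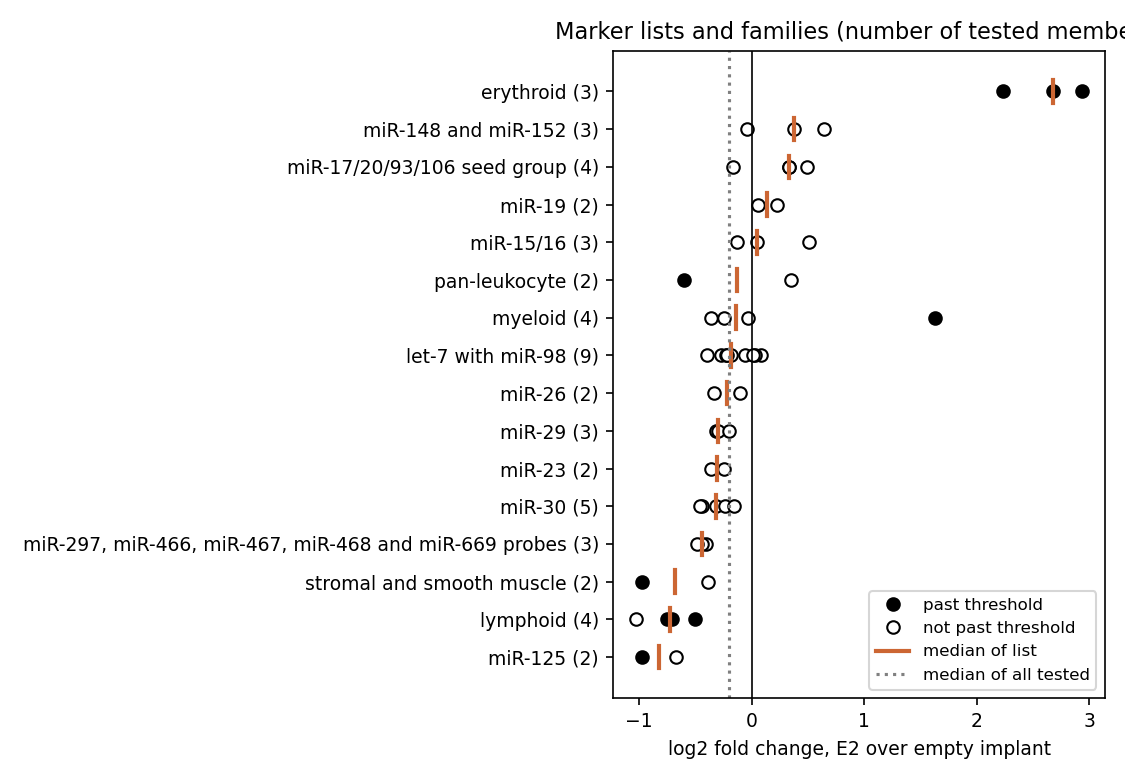
Log2 fold change, E2 over empty implant, of the tested members of marker lists and seed families with 2 or more tested members; each point is 1 miRNA, filled where it passed the threshold, short bars are list medians and the dotted line is the median of all 95. The red cell list lies at 2.24 to 2.94, and the lymphoid list has 3 of 4 members past the threshold on the other side.

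Among miRNA families, none of the members of the groups described next passed the threshold. The miR-17 seed group is linked to proliferation of lymphoid and myeloid cells and comes from the miR-17-92, miR-106a-363 and miR-106b-25 transcripts. The 4 tested probes have the seed AAAGUGC, shown here in capitals in 4 of the miRNAs they read; miR-93-5p lies at chr5:138165574-138165596 and miR-106b-5p at chr5:138165787-138165807, both on the minus strand within the span of Mcm7. miR-17-5p lies at chr14:115043684-115043706 and miR-20a-5p at chr14:115044183-115044205, both on the plus strand.
miR-93-5p: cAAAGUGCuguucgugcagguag
miR-106b-5p: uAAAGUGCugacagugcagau
miR-17-5p: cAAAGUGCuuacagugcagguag
miR-20a-5p: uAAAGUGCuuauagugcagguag

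miR-93 had 100 and 114 with placebo and 148 and 154 with E2. The probe for miR-106a and miR-17 had 932 and 860 with placebo and 1154 and 1104 with E2. The probe for miR-20a and miR-20b had 1870 and 1459 with placebo and 2207 and 1963 with E2. Both E2 samples were above both placebo samples for each of these 3, as for 17.9% of all tested miRNAs, with log2 fold changes of 0.50, 0.33 and 0.33. miR-106b, with 144 and 224 against 142 and 180, overlapped and had a log2 fold change of -0.17. The median of the 4 was 0.33 against -0.20 for all tested miRNAs, and it kept its sign under every scaling that was tried. miR-25, from the same transcript as miR-93, had 2339 and 1884 with placebo and 2687 and 2629 with E2, a log2 fold change of 0.34 without overlap.

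The family of miR-148 and miR-152, whose members target the DNA methyltransferase DNMT1, had a median of 0.37 over 3 members. miR-148a had 718 and 654 with placebo and 1319 and 872 with E2. The groups did not overlap, and the E2 samples were spread. The difference, a log2 fold change of 0.65, did not pass (limma adjusted p = 0.0848). miR-152 had 48 and 45 with placebo and 69 and 53 with E2, and miR-148b had a log2 fold change of -0.04.

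The miR-15/16 family, which restrains the cell cycle and BCL2 in lymphocytes, was mixed. miR-15a had 1223 and 962 with placebo and 1617 and 1472 with E2, higher in both E2 samples, with a log2 fold change of 0.51 (limma adjusted p = 0.104). miR-16, made from the same precursor transcript and from another locus, had 10893 and 11046 with placebo and 9859 and 10194 with E2, a log2 fold change of -0.13. miR-15b had a log2 fold change of 0.05. The median of 0.05 turned negative after rescaling by the housekeeping mRNA or positive control probes.

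Other large families lay near the median of all tested miRNAs. The 9 tested probes of the let-7 family with miR-98, which is linked to differentiation, had log2 fold changes from -0.39 to 0.09 and a median of -0.19. The most abundant of them, let-7g, had 9936 and 8863 with placebo and 8987 and 7277 with E2, which overlapped. The 3 miR-29 probes, which target collagen messages, had a median of -0.30, and miR-29a itself had 3792 and 4679 with placebo and 3583 and 3188 with E2. The medians of let-7 and miR-29 turned positive after rescaling by the ligation controls. The 5 miR-30 probes had log2 fold changes of -0.45 to -0.16 with a median of -0.32, which was -0.00299 after rescaling by the ligation controls. Within it, miR-30d had 588 and 686 with placebo and 478 and 449 with E2. Smaller families gave medians of -0.22 for the 2 miR-26 probes, -0.30 for the 2 miR-23 probes and 0.14 for the 2 miR-19 probes. The first pair of medians turned positive after rescaling by the ligation controls, and that of miR-19 turned negative with the housekeeping or positive controls. The miRNAs of the transcript of miR-99b, let-7e and miR-125a had a median of -0.39, and let-7e had 167 and 190 with placebo and 127 and 144 with E2.

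The panel held 34 probes for miR-297, miR-466, miR-467, miR-468 and miR-669, most of which come from a rodent repeat cluster in an intron of Sfmbt2, and 3 were tested. miR-669a had 85 and 83 with placebo and 51 and 70 with E2. miR-467f had 122 and 127 with placebo and 86 and 97 with E2. The last of them, the probe for miR-466b-3-3p as well as miR-466a-3p, had 118 and 87 with placebo and 80 and 73 with E2. All 3 were lower in both E2 samples, as were 45.3% of all tested miRNAs, with log2 fold changes of -0.48 to -0.40, and none passed. RefSeq places the gene of miR-467f on chromosome 11, outside Sfmbt2. Of the 64 probes of the imprinted Dlk1-Dio3 cluster, only miR-376a was tested. It had 26 and 80 with placebo and 35 and 230 with E2, so the groups overlapped and a single E2 sample was high. Its log2 fold change was 0.96 ± 0.74 (SE) (limma adjusted p = 0.370).

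Among miRNAs that did not pass, those with the smallest p among the higher ones were miR-2141, miR-148a and miR-709. miR-2141 had 171 and 111 with placebo and 243 and 223 with E2, a log2 fold change of 0.75 (limma adjusted p = 0.0550). miR-709 had 55 and 63 with placebo and 84 and 97 with E2, a log2 fold change of 0.61. Both were higher in both E2 samples. miR-1949 had 50 and 59 with placebo and 92 and 83 with E2, a log2 fold change of 0.68.

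Among the lower miRNAs that did not pass, miR-21, miR-146a and miR-191 were lower in both E2 samples, as were 45.3% of all tested miRNAs. miR-21, which is induced by inflammation and growth signals, had 2266 and 2586 with placebo and 1895 and 1755 with E2, a log2 fold change of -0.41 (limma adjusted p = 0.109). miR-146a, a feedback inhibitor of Toll-like receptor signalling whose loss gives autoimmunity in mice, had 3604 and 3560 with placebo and 3184 and 2605 with E2. A log2 fold change of -0.31 was near the shift of -0.20 shared by the tested miRNAs. miR-191 had 776 and 839 with placebo and 638 and 590 with E2, a log2 fold change of -0.39. In all, 50 of the 85 miRNAs that did not pass were without overlap, 13 higher and 37 lower.

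At the other end, miR-27a, miR-1944, miR-130b, miR-98 and miR-1198 had log2 fold changes nearest to 0, from -0.03 to 0.02. miR-1944, among the most abundant probes, had 5875 and 6368 with placebo and 6485 and 5597 with E2, and the groups overlapped. The 95% intervals bound how far such values can be read: they lay within 1 log2 unit of 0 on either side for 79 of the 95 miRNAs, and within 0.5 for 14. The median log2 fold change was -0.19 for the 27 miRNAs with a mean of 1000 or more, -0.19 for the 16 between 200 and 1000 and -0.22 for the 52 below 200. Of the 27 miRNAs with a mean of 1000 or more, 2 rose and 4 fell, of the 16 between 200 and 1000, 2 rose and 1 fell, and of the 52 below 200, miR-125b-5p alone passed.

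The 471 untested mouse probes were mostly at background: 460 had no E2 or placebo sample above the floor, and their median level was 12. Where both samples of one group were above the floor and both of the other below, the probe is named. miR-196b, a miRNA of the Hox clusters expressed in blood progenitors, had 26 and 16 with placebo and 66 and 70 with E2. It is printed because of this change from under to over the floor, at chr6:52230129-52230150 on the minus strand.
miR-196b-5p: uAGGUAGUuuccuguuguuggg

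Both placebo samples lay under the floor, so the size of this difference cannot be read and no fold is given. Without the filter on low levels miR-196b passed (limma adjusted p = 0.0250). It was the only one of the 471 untested probes to pass there, and 32 of the 471 had an unadjusted p under 0.05. miR-1839-5p had 45 and 38 with placebo and 59 and 58 with E2 and did not pass without the filter. miR-467b had 60 and 59 with placebo and 50 and 45 with E2, and it did not pass either.

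The make-up of the whole measured pool moved with these changes. miR-150 made up 29.2% and 25.2% of the summed mouse score with placebo and 18.7% and 18.8% with E2. The 4 miRNAs that rose made up 1.79% and 1.08% with placebo and 6.76% and 6.31% with E2. The 10 highest miRNAs of each sample together held 66.7% and 65.7% with placebo against 58.5% and 57.8% with E2. miR-16 ranked 2 and let-7g ranked 3 in all 4 samples.

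The summed mouse score itself was 151249 and 139137 with placebo and 129374 and 120812 with E2. The fall of miR-150 equalled 80.5% of the net difference between those means. Rises offset falls in that net difference, and the 4 miRNAs that rose added 6082 to it, so 80.5% is not the share of miR-150 among all falls. Without miR-150 the sums were 107126 and 104013 with placebo and 105163 and 98134 with E2, which overlapped. The control probes did not move together: between the means of log2 values, E2 over placebo, the ligation controls differed by -0.32, the housekeeping mRNAs by 0.20 and the positive controls by 0.15. These differences are those the rescaled fits above start from.

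**Figure D5:**
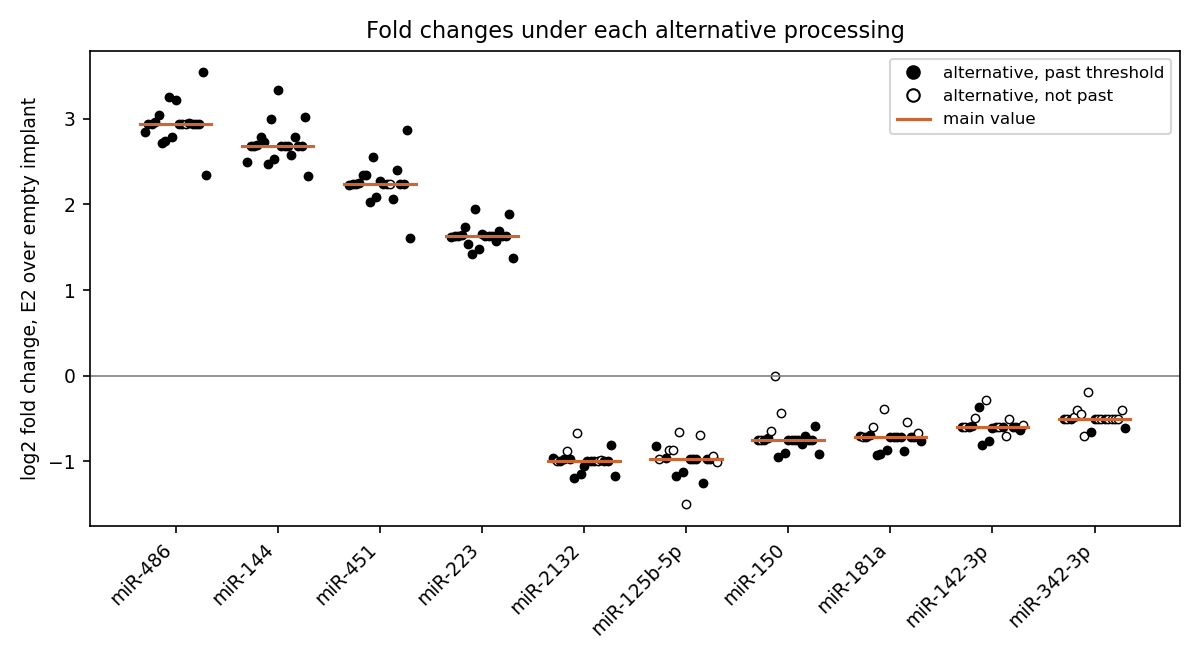
Log2 fold change, E2 over empty implant, of the 10 miRNAs past the threshold under each of the 19 alternatives in which it was tested; each point is 1 alternative, filled where it passed the threshold, and the bar is the value reported. No miRNA crosses 0, and miR-150 reaches it under quantile normalization. Alternatives that change only the filter, the variance estimate or the use of EE samples keep the fold change by construction.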

How the data were processed

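Total RNA of splenocytes was profiled by the manufacturer on the nCounter mouse miRNA panel, per the labels. The authors deposited a whole-number score for every probe in each sample. The sources used here do not give their normalization, background correction or rounding. The geometric mean of the 100 highest miRNAs differed by 1.50% between the samples, so they appear rescaled per sample, the raw depth is unknown, and no count model or counting interval was used. The size and call of small falls depend on the scaling.

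Mouse probes were tested if their 6-sample mean passed the floor (negative control mean plus 2 SD), with limma 3.58.1 in R 4.3.3. lmFit and eBayes with a trend were run on log2(value + 1), with 3 groups in a single fit (10.5 total degrees of freedom). The added 1, and more so the background left in the values, understate changes of low probes. Subtracting the mean of the negative control probes moved the log2 fold change of miR-125b-5p from -0.97 to -1.50. For miR-125a-5p it went from -0.68 to -0.96. Tests were two-sided with Benjamini-Hochberg adjustment. Folds are ratios of geometric means. With 2 samples per group no outlying sample could be called. Alternatives were other pseudocounts, filters, scalings, variance estimates and each sample left out.

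Named miRNAs were all past the threshold, up to 10 more per direction by smallest p without overlap, the 10 most abundant, marker list members, up to 4 members per family, the 5 nearest to 0 and untested probes that crossed the floor; those not printed add no passing miRNA. Members and lists were chosen with earlier results of these data known. Roles are background. Of the tested probes, 59 had a RefSeq mature sequence that could be used.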

Additional observations from a re-analysis of the deposited data

How the results depend on the processing

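No paired analysis was possible because the sample titles share no replicate numbers between groups. Over 19 alternatives, none of the 10 called miRNAs changed sign, and miR-150 became 0 under quantile normalization by construction. miR-486, miR-144, miR-451 and miR-223 passed in every alternative except limma's robust variance estimate, where miR-486 (adjusted p = 0.0522) and miR-451 (0.116) did not. The number higher was 4, and rose to 7 with quantile normalization and 7 with the robust estimate. The number lower was 6, and fell to 0 without the filter, 0 after rescaling by the median tested miRNA and 0 by the ligation controls in limma's test. At an unadjusted p under 0.05 these 3 settings gave 23 lower of 566 mouse probes, 5 of 95 and 1 of 95. Without the filter the fold changes stayed the same, while the spread estimate and the adjustment covered all mouse probes. Leaving out each sample in turn gave 4 to 7 higher, the most without placebo sample 1, and 2 to 6 lower, with 2 when either E2 sample was left out. miR-181a, miR-142-3p, miR-125b-5p, miR-2132 and miR-342-3p each lost their call in 2 or more of these 6 fits. Of 57 named miRNAs not past the threshold, 29 changed sign under at least 1 alternative and 12 passed under at least 1. With 2 samples per group, an unknown normalization and probes near the negative controls, small falls and low miRNAs are the least secure values.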
